A study of Homo sapiens with 24 samples.

Results

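The results describe a 1.1 Mb window of chromosome 4 that holds ANK2 and CAMK2D, in RD, an established human cell line of fusion-negative rhabdomyosarcoma, a muscle-lineage tumour without the PAX-FOXO1 fusion gene. Members were all peaks of 14 ChIP-seq peak lists that overlapped chr4:113650001-114750000 in the hg19 build, 458 of 564552 peaks in all. The window was chosen by the H3K27ac lists, since many of its H3K27ac regions were listed after TWIST2 knockdown only. H3K27ac values are therefore given as a description, without a test. ANK2 is taken as about 113.74 to 114.3 Mb and CAMK2D as about 114.37 to 114.68 Mb. These bounds were given with the window, rounded, and not read from an annotation. A distance of a few kb from a given start is therefore approximate. Where a region lies within these spans, whether it is exonic or intronic was not analysed here.

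The control and TWIST2 KD groups each had 2 libraries for H3K27ac, for MYOD and for SMARCA4 (the BRG1 antibody), all in RD cells. A further 2 libraries came from RD cells with 3xTy1-TWIST2, a TWIST2 protein carrying a Ty1 tag, precipitated with a Ty1 antibody. These have no knockdown or untagged counterpart among the lists. The labels do not say how TWIST2 was knocked down, what the control cells carried, how tagged TWIST2 was expressed, or whether replicates were separate cultures, so differences between replicates may be technical. TWIST2 itself was not measured as RNA or protein in these lists, so the knockdown has no check here. The SMARCA4 libraries belong to a set labelled RD-2 and all others to a set labelled RD-1, and the meaning of these names is not given.

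ANK2 encodes ankyrin-B, an adaptor that ties ion channels and transporters of the membrane to the spectrin skeleton in heart, muscle and nerve. CAMK2D encodes the delta chain of calcium/calmodulin-dependent protein kinase II, which phosphorylates calcium-handling proteins and is abundant in heart and muscle. Acetylation of histone H3 at lysine 27, H3K27ac, marks promoters and enhancers in use. MYOD, the myogenic determination factor, and TWIST2, a mesenchymal factor of the same basic helix-loop-helix class, both bind E-boxes, and TWIST proteins are known to hold back muscle differentiation. SMARCA4 is an ATPase of the SWI/SNF remodelling complex.

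E-boxes have the letters CANNTG, and CAGCTG is the form most typical of MYOD. Because peaks of MYOD and tagged TWIST2 lay within a few kb of both given gene starts, the 250 bases before the annotated starts are shown, from RefSeq on GRCh38.p14. They are read 5′ to 3′ on the gene's strand, with each CANNTG in capitals. CANNTG reads the same on both strands and includes CAGCTG. The table lists 10 starts for ANK2. Starts 2 and 3 lie 565.6 and 565.1 kb from the gene's end, within 10 kb of the 560 kb span used here, and the longest annotated form is 678.1 kb. CAMK2D has 1 start in the table and a length of 310.7 kb against a span of 310 kb.
ANK2 start 2, chr4:112817855-112818104, plus strand: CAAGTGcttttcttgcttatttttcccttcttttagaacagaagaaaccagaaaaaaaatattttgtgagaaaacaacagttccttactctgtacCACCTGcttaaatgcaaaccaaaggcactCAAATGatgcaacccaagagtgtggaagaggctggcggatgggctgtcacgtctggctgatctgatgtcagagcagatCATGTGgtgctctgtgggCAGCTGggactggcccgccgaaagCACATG
ANK2 start 3, chr4:112818409-112818658, plus strand: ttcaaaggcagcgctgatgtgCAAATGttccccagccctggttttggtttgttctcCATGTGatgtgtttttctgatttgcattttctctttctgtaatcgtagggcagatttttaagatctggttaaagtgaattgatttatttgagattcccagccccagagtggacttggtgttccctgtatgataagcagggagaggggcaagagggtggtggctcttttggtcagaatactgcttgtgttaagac
CAMK2D, chr4:113761739-113761988, minus strand: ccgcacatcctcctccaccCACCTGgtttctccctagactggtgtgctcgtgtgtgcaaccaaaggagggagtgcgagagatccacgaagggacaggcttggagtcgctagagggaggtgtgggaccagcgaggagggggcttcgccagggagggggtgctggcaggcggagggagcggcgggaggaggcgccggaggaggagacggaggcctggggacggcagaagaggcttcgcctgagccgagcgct

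The window before ANK2 start 2 held 6 CANNTG matches, of which 1 was CAGCTG, and the window before start 3 held 2. The CAMK2D window held 1, CACCTG. Of 35116 promoters of the same length in the table, 61.8% held CANNTG and 14% held CAGCTG. The ANK2 windows had a GC content of 46.4% and 44%, and that of CAMK2D 67.6%. A match describes letters only. The GRCh38 positions were not converted to hg19, so the matches could not be placed under individual peaks.

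The 10 lists of H3K27ac, MYOD and tagged TWIST2 give positions only, so their depth is unknown. List length ran from 34932 to 48022 peaks in the H3K27ac libraries, from 43381 to 52510 in the MYOD libraries, and was 74087 and 71100 in those of tagged TWIST2. The SMARCA4 lists held 11835 and 25013 peaks in control and 12518 and 14676 in KD cells. Their libraries had 46690705 and 44810601 tags in control and 36095336 and 41066933 in KD cells. The share of tags in peaks was 0.88% and 1.83% in control and 0.65% and 0.70% in KD cells. Both measures were lower in each KD library than in either control library, and their effect on the SMARCA4 lists was not tested. KD lists were longer than control lists by 1.32 times for H3K27ac, which is set beside the counts that follow.

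After TWIST2 knockdown the ANK2 and CAMK2D window held more H3K27ac peaks. The control libraries had 24 and 21 peaks in the window and the KD libraries 55 and 52, or 22.5 ± 2.12 against 53.5 ± 2.12 (SD, n = 2), a ratio of 2.38. The groups did not overlap. Set against list length, there were 65.4 and 60.1 peaks per 100000 of the list in control and 115 and 111 in KD cells, a ratio of 1.8. The peaks covered 51.65 and 45.37 kb in control and 133.49 and 128.38 kb in KD cells, a ratio of 2.7. The median peak width in the window was 1438 and 1671 bp in control and 1636 and 1740 bp in KD cells, and the groups overlapped. A list cannot tell a peak present in fewer cells from a weaker peak in every cell.

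Most of the added peaks lay over ANK2. Its span had 8 and 7 H3K27ac peaks in the control libraries and 28 and 27 in the KD libraries, a ratio of 3.67. The CAMK2D span had 11 and 10 in control and 18 and 16 in KD cells, a ratio of 1.62. The 70 kb between the spans had 3 and 2 against 4 and 3, and the groups overlapped there. The 70 kb past the CAMK2D start had 1 and 1 against 4 and 4.

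**Figure D1:**
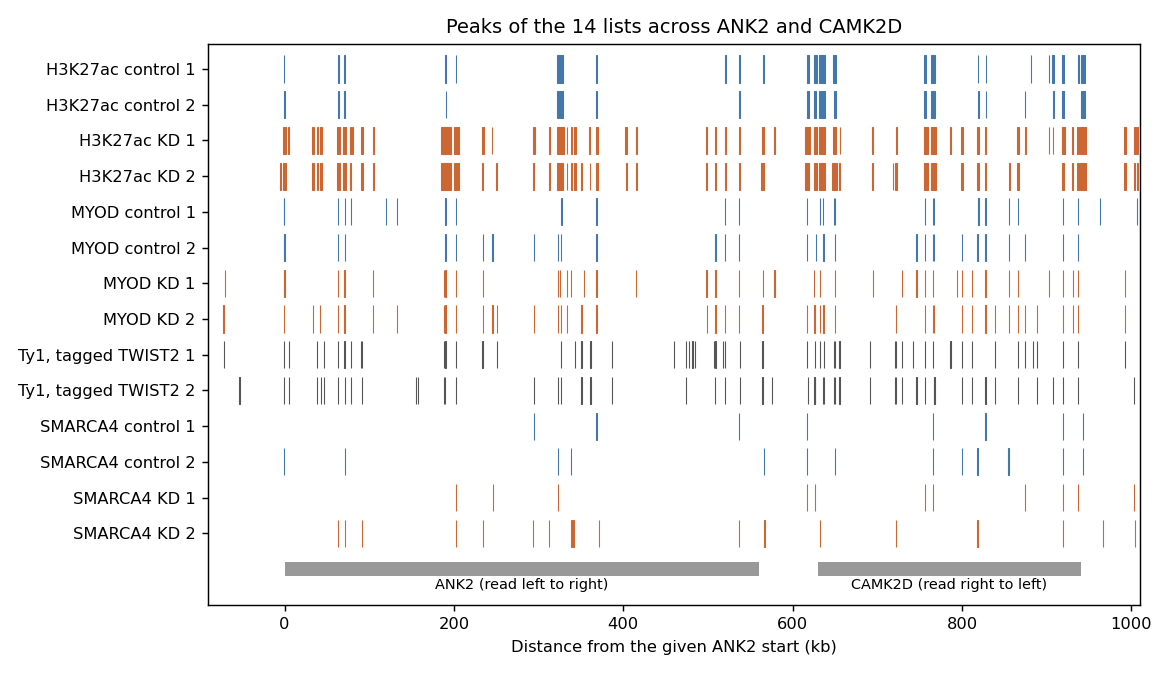
Map of every peak of the 14 lists in the ANK2 and CAMK2D window. The x axis is the distance from the given ANK2 start in kb, each line is 1 library (blue control, orange KD, grey tagged TWIST2), each bar is 1 peak with a thin outline that widens the narrowest ones, and grey bars at the base mark the given gene spans. Over the ANK2 span the KD libraries have 28 and 27 H3K27ac peaks, where the control libraries have 8 and 7.

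The same counts in the neighbouring windows of 1.1 Mb show how far the pattern reached. The window before had 6 and 3 H3K27ac peaks in control and 7 and 6 in KD cells, and the groups overlapped. The window after had 10 and 7 in control and 22 and 18 in KD cells, a ratio of 2.35, close to that of the ANK2 and CAMK2D window itself. There, 9 of 24 H3K27ac regions (37.5%) were found in both KD libraries and no control library, against 19.8% on all chromosomes. By name order in the gene table, LARP7 is the protein-coding gene before ANK2 and ARSJ the one after CAMK2D. The windows were not tested against each other.

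**Figure D2:**
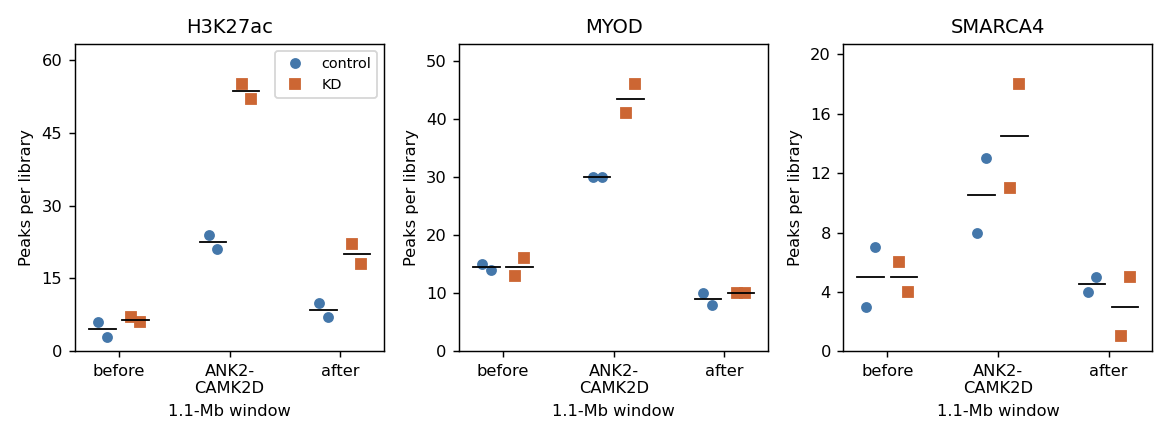
H3K27ac, MYOD and SMARCA4 peaks per library in the ANK2 and CAMK2D window and in the windows of equal length before and after it. Points are libraries (circles control, squares KD), black lines are means of 2 libraries, and the y axes start at 0 and differ between panels. H3K27ac counts are 24 and 21 against 55 and 52 in the middle window and 10 and 7 against 22 and 18 in the one after it.

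Overlapping H3K27ac peaks of the 4 libraries were merged into 61 regions, 25 with a control peak and 60 with a KD peak. Of these, 26 (42.6%) were found in both KD libraries and no control library, called KD-only here. On all chromosomes 19.8% of H3K27ac regions were KD-only, and since this contrast chose the window, nothing is read from the excess. None of the 61 was control-only (both control libraries and no KD library), against 4.21% on all chromosomes, and 17 (27.9%) were shared by all 4 libraries, against 49.1%. The other 18 regions comprised 10 in 1 KD library only, 1 in 1 control library only, 2 in 1 library of each group, 4 in both KD libraries and 1 control library, and 1 in both control libraries and 1 KD library. When every list was cut to an equal length, widest peaks first, the KD-only count was 15 rather than 26 and 1 region became control-only. With the wider part of each list alone (the upper fraction of 0.5) it was 13.

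The KD-only regions were spread along the window rather than gathered at 1 site. ANK2 held 17 of its 30 regions as KD-only and CAMK2D 6 of 21, with 3 of 4 past the CAMK2D start and none between the genes. They ran over 974.4 kb with a median spacing of 20.9 kb between centres. Within ANK2 lay the longest stretch with no control peak, chr4:114109251-114260058, 150.8 kb long, with 4 KD-only regions. The regions were narrower than the shared ones, with a median of 1619.5 bp (630 to 2723) against 3820 bp (1472 to 11376).

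In ANK2, the widest KD-only regions were chr4:113781605-113784093, with peaks of 2275 and 2489 bp in the KD libraries, and chr4:114081481-114084203, with 2702 and 2416 bp. Neither overlapped a MYOD region found in more than 1 library. Region chr4:113830583-113832727 had peaks of 2145 and 2056 bp and no MYOD peak. Region chr4:113972969-113975100 had 1968 and 1751 bp, and its MYOD region chr4:113973812-113974112 was listed in control 2 and both KD libraries. The last 2 each held a SMARCA4 peak of KD library 2 alone.

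In CAMK2D, 3 of the widest KD-only regions each held a TWIST2 region, that is, a tagged TWIST2 peak in both Ty1 libraries. Region chr4:114461196-114463086 had H3K27ac peaks of 1595 and 1886 bp in the KD libraries and TWIST2 at chr4:114462001-114462288, with MYOD and SMARCA4 peaks in KD library 2 only. Region chr4:114538502-114540627 had 1969 and 2126 bp, TWIST2 at chr4:114539368-114539703, and a MYOD peak in control 2 and both KD libraries. Region chr4:114604921-114606759 had 1809 and 1758 bp, TWIST2 at chr4:114605942-114606217, and a MYOD peak in control 1 and both KD libraries. Past the CAMK2D start, chr4:114731424-114733551 had 2095 and 2005 bp and a MYOD region that was itself KD-only, chr4:114732157-114732444.

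The H3K27ac regions present in every library also tended to be broader after knockdown. Of 17 shared regions, 14 (82.4%) were wider in both KD than in both control libraries, 1 (5.88%) was narrower and 2 overlapped. On all chromosomes 45.4% of shared regions were wider and 29.8% narrower in this sense. The median ratio of KD to control width was 1.64 in the window, with a range of 0.825 to 14.4, against a median of 1.05 over all shared regions. At least 2-fold wider were 6 of 17 (35.3%), against 7.58% of all shared regions. Width comes from the same lists that chose the window and was not tested.

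**Figure D3:**
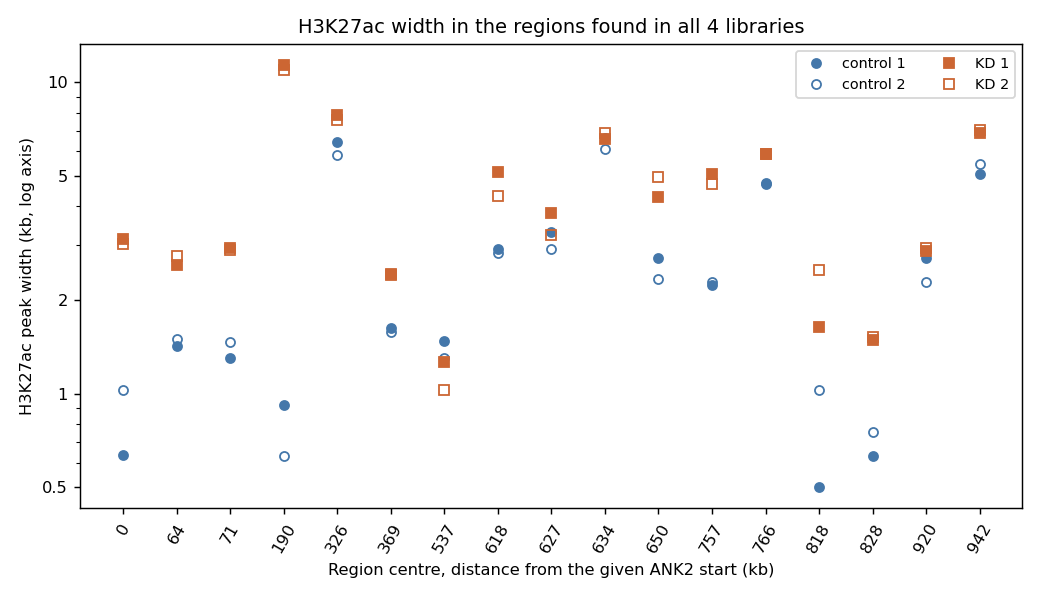
H3K27ac peak width in each of the 17 shared regions, ordered along the window. The x axis gives the region's centre as distance from the given ANK2 start in kb, the y axis width in kb on a log axis, and each point 1 library (circles control, squares KD). In 14 regions both KD points lie above both control points, farthest at 190 kb, where control widths are 917 and 632 bp and KD widths 11367 and 10980 bp.

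The largest difference in width was inside ANK2. At chr4:113924642-113936017, H3K27ac peaks spanned 917 and 632 bp in control cells, while the KD libraries had peaks of 11367 and 10980 bp, a ratio of 14.4. By this ratio the region was at place 2 of 27442 shared regions on all chromosomes. The next H3K27ac region, 3.7 kb further, was chr4:113939684-113946426, with 6374 and 6289 bp after knockdown, against 501 bp in control 1 and no peak in control 2. A width of 501 bp was the smallest of any H3K27ac peak in the window in every library. In control 2, KD 1 and KD 2, 8.92%, 8.34% and 8.48% of peaks had the smallest width of the list. This second region was chosen after its values were seen. Over the 21.8 kb from the first base of one to the last of the other, H3K27ac covered 1.42 and 0.63 kb in control and 17.74 and 17.27 kb in KD cells. This stretch begins 184.6 kb past the given ANK2 start and accounts for 20% of the added H3K27ac bases of the whole window.

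MYOD and tagged TWIST2 lay within both broad regions, and MYOD was listed there in control cells too. A MYOD region in all 4 libraries, chr4:113929924-113930165, and a shared one at chr4:113942124-113942383 each overlapped a TWIST2 region. The H3K27ac peaks of the control libraries overlapped these same MYOD regions. A KD-only MYOD region, chr4:113928318-113928569, lay just before the former and also overlapped a TWIST2 region. SMARCA4 had no peak in the first broad region. In the second it had the window's only KD-only SMARCA4 region, chr4:113942216-113942404, on top of MYOD and TWIST2.

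**Figure D4:**
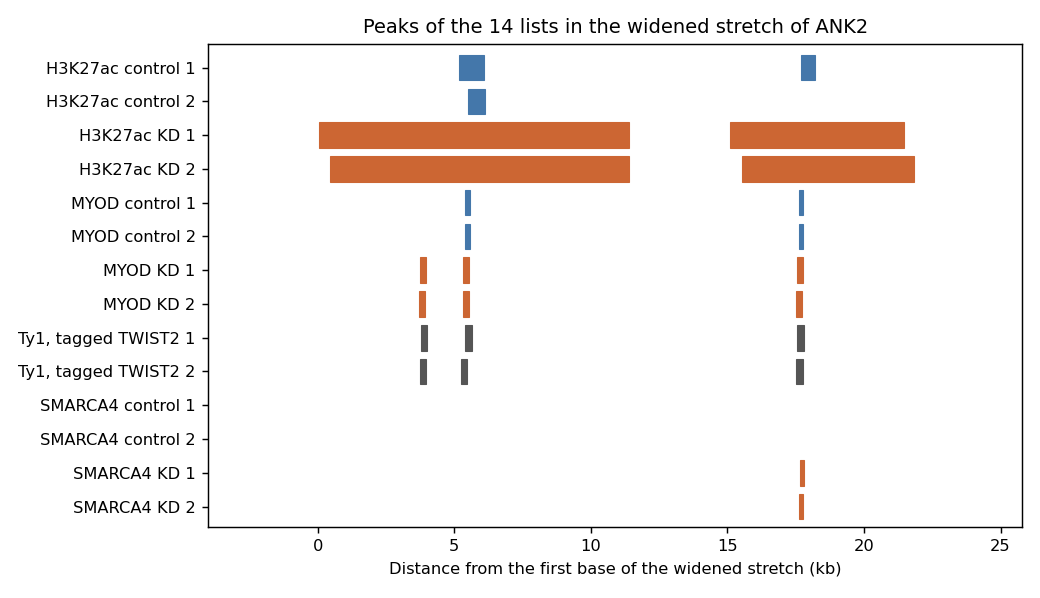
Peaks of the 14 lists in the stretch of ANK2 with the broadest H3K27ac after knockdown. The x axis is the distance from the first base of the stretch in kb, each line is 1 library (blue control, orange KD, grey tagged TWIST2) and each bar 1 peak to scale. H3K27ac peaks of 917, 632 and 501 bp in control cells lie within peaks of 11367, 10980, 6374 and 6289 bp in KD cells, and MYOD peaks of all 4 libraries lie at 2 positions.

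The other named broad regions differed less in width. In ANK2, chr4:114061592-114069479 had 6427 and 5865 bp covered in control and 7874 and 7555 bp in KD cells. At the CAMK2D end, chr4:114370950-114377807 had 6634 and 6100 bp against 6556 and 6858 bp, and the groups overlapped. Within CAMK2D, chr4:114502849-114509033 had 4753 and 4724 bp in control and 5897 and 5874 bp in KD cells, with no overlap. The narrower exception, chr4:114276254-114277725 in ANK2, had 1472 and 1304 bp in control and 1261 and 1028 bp in KD cells.

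The given gene starts differed from each other in the control cells. At the ANK2 start, region chr4:113738142-113741274 had H3K27ac peaks of 637 and 1026 bp in control and 3133 and 3018 bp in KD cells, a ratio of 3.7. By width, the control peaks were at percentiles 12 and 22.6 of their lists and the KD peaks at 81.3 and 79.7. At the CAMK2D start, chr4:114678831-114685881 had 5079 and 5481 bp in control and 6901 and 7048 bp in KD cells, a ratio of 1.32. These were at percentiles 92.9 and 94.2 in control and 97.3 and 97.5 in KD cells. The region at the given CAMK2D start was thus already among the wider H3K27ac peaks in control cells.

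MYOD was listed near both given starts in every library. These starts are rounded, so the distances below are approximate and may differ from those to an annotated start. A shared MYOD region at chr4:113739010-113739310 lay 0.8 kb before the given ANK2 start and overlapped the TWIST2 region chr4:113739074-113739371. Another at chr4:114677192-114677441 lay 2.6 kb from the given CAMK2D start and overlapped TWIST2 at chr4:114677126-114677380. SMARCA4 had a peak near the ANK2 start in control 2 only. Inside the CAMK2D start region, 2 adjacent SMARCA4 peaks, chr4:114682777-114682971 in control 1 and chr4:114682973-114683131 in control 2, had 9.85 and 9.82 normalized tags in the authors' lists, and neither KD list had a peak there. KD 1 had a SMARCA4 peak 2.6 kb from the given start on the other side, chr4:114677297-114677437, with 3.88 normalized tags. It overlapped the MYOD and TWIST2 regions just described. By score within their lists, the control peaks were at percentiles 80.4 and 81.5 and the KD 1 peak at 7.26. The SMARCA4 KD libraries had fewer tags and a lower share of tags in peaks. A peak missing from a KD list may therefore be one below the threshold.

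MYOD peaks were more numerous over the window in both KD libraries than in either control library, with a smaller ratio than for H3K27ac. The control libraries had 30 and 30 MYOD peaks and the KD libraries 41 and 46, or 30 ± 0 against 43.5 ± 3.54 (SD, n = 2), a ratio of 1.45. The groups did not overlap. The exact two-sided permutation test gave p = 0.333, which is the lowest value reachable with groups of 2, so no such comparison can pass 0.05. Per 100000 peaks of the list the values were 66.7 and 69.2 against 78.1 and 95.8, a ratio of 1.28.

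By gene, ANK2 had 11 and 13 MYOD peaks in control and 17 and 22 in KD cells, and CAMK2D 14 and 13 against 17 and 18, each with exact permutation p = 0.333. In the neighbouring windows there were 15 and 14 MYOD peaks against 13 and 16 before and 10 and 8 against 10 and 10 after. The groups overlapped in both, with exact permutation p = 1.0. The difference between windows was not itself tested.

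Region by region, the share of MYOD regions that were KD-only was near that of all chromosomes. Of 72 MYOD regions, 7 (9.72%) were KD-only, against 9.1% on all chromosomes. None was control-only, against 5.41%, and 13 (18.1%) were shared, against 20.3%. The remaining 52 were mixed, among them 9 found in control 1 alone, 2 in control 2 alone, 12 in KD 1 alone and 10 in KD 2 alone. The class counts depended on single libraries, and a class is easier to meet when a library is left out. Without KD 1, KD 2 or control 2 the KD-only count was 17, 19 or 11, and without control 1, control 2 or KD 2 the control-only count was 2, 9 or 3.

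The 7 KD-only MYOD regions fell in different settings. In KD-only H3K27ac lay 3 of them, at chr4:114073282-114073616 in ANK2, at chr4:114670459-114670683 in CAMK2D and at chr4:114732157-114732444 past its start. Another lay in the broad ANK2 region described above. Between the genes, chr4:114304283-114304615 lay in H3K27ac peaks of both KD libraries and of no control library, although a control 1 peak lay elsewhere in the same merged region, and chr4:114365516-114365804 in shared H3K27ac. In CAMK2D, chr4:114551702-114551964 had no H3K27ac peak in any library. TWIST2 regions overlapped 3 of the 7 (42.9%), against 25% of KD-only MYOD regions on all chromosomes. SMARCA4 peaks overlapped none, against 25%. Those not in a named H3K27ac region were listed after their values were seen.

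The 13 shared MYOD regions all overlapped an H3K27ac region, 10 a shared region and 3 a region of mixed presence, and none a KD-only region. For chr4:114595655-114595931 the only H3K27ac was a 501 bp peak of KD 2. No share over all chromosomes is set beside these counts, so nothing is read from them. TWIST2 regions overlapped 8 of the 13 (61.5%), against 46.6% of shared MYOD regions on all chromosomes.

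Across the 26 KD-only H3K27ac regions, MYOD peaks were found mainly in the KD libraries. A MYOD peak was present in 2 and 4 of the regions in the control and in 12 and 13 in the KD libraries, or 3.0 ± 1.41 against 12.5 ± 0.707 (SD, n = 2), with exact permutation p = 0.333. The ratio of 4.17 was 3.83 with MYOD lists of equal length, cut by the order of the list, whose meaning is not given. Without control 2 the ratio was 6.25. Because H3K27ac in KD but not control cells defined these regions, the MYOD ratio and its p are descriptions, not an independent test. By library, the MYOD shares were 7.69% and 15.4% (control) against 46.2% and 50% (KD). For KD-only H3K27ac regions on all chromosomes they were 18.2% and 18.3% against 53.6% and 52.5%. Each share was lower in the window. In all, 17 regions (65.4%) had a MYOD peak in some library, against 67.3% of KD-only H3K27ac regions on all chromosomes. A control library had the MYOD peak in 6 (23.1%), against 24.7%, and the region's MYOD was itself KD-only in 3 (11.5%), against 21.3%. MYOD peaks in KD but no control library were found in 11 (42.3%), against 42.5% on all chromosomes. Apart from that for KD-only MYOD, the shares not split by library were near those of KD-only H3K27ac regions in general.

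The 17 shared H3K27ac regions had MYOD in nearly every library. A MYOD peak was present in 15 and 16 of them in control and in 14 and 15 in KD cells (exact permutation p = 0.667), and 16 (94.1%) had one in some library, against 94.2% on all chromosomes. SMARCA4 was present in 7 and 9 of the 17 in control and 6 and 6 in KD cells (exact permutation p = 0.333). On all chromosomes these shares were 26.7% and 49.3% of shared H3K27ac regions in control and 24.9% and 24.6% in KD cells, against 41.2% and 52.9% and 35.3% and 35.3% in the window. In some library, 16 of the 17 (94.1%) had a SMARCA4 peak, against 68.4% on all chromosomes, a difference that was not tested. Shared regions had a median width of 3820 bp in the window, against 2725 bp on all chromosomes. The shares were not adjusted for width.

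**Figure D5:**
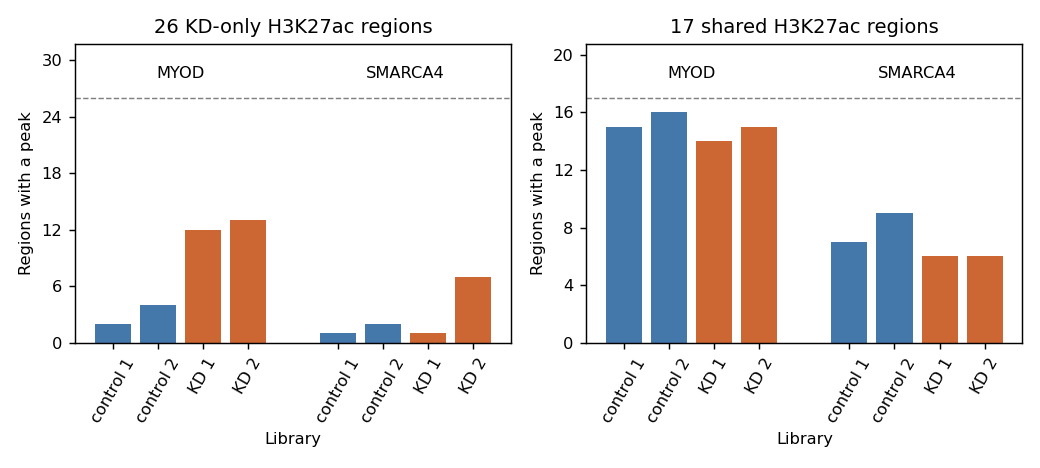
Number of H3K27ac regions of the window with a MYOD or SMARCA4 peak, by library (blue control, orange KD), for the 26 KD-only regions at left and the 17 shared regions at right. Bars start at 0 and the dashed line marks all regions of the class. MYOD is in 2 and 4 KD-only regions in control and 12 and 13 in KD cells, but in 15 and 16 against 14 and 15 of the shared regions.

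By number of peaks, the SMARCA4 groups overlapped, but set against list length they did not. There were 8 and 13 in the window in control and 11 and 18 in KD cells, or 10.5 ± 3.54 against 14.5 ± 4.95 (SD, n = 2), with exact permutation p = 0.667. The higher control count came from the longest of the 4 lists, control 2. Per 100000 peaks of the list the values were 67.6 and 52.0 against 87.9 and 123. These did not overlap, with exact permutation p = 0.333, the lowest value reachable. KD library 2 alone had 11 SMARCA4 peaks over ANK2, where the other 3 libraries had 3 each. Over CAMK2D there were 3 and 6 against 5 and 4. Of the 26 KD-only H3K27ac regions, 8 (30.8%) held a SMARCA4 peak, against 23.2% on all chromosomes, and by library these were 1 and 2 in control and 1 and 7 in KD cells.

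Few SMARCA4 regions repeated between libraries. Of 39 in the window, 1 (2.56%) was KD-only, against 1.91% on all chromosomes, none was control-only, against 6.68%, and 1 was shared, against 1.11%. The count of none depends on the merge. At the CAMK2D start the control 1 peak ended at 114682971 and the control 2 peak began at 114682973, with no KD peak. Without overlap they counted as separate regions, and a wider merge was not run for SMARCA4. The KD-only region, chr4:113942216-113942404 in ANK2, had 7.48 and 8.04 normalized tags in the KD libraries by the authors' lists, with scores at percentiles 95.1 and 96 of those lists. The shared one, chr4:114659444-114659699 in CAMK2D, had 4.93 and 6.03 normalized tags in control and 4.16 and 5.36 in KD cells. Its scores were at percentiles 24.8 and 41.2 of the control lists and 32.9 and 69.3 of the KD lists. Tags describe peaks within a list, so no difference between groups is read from them. This region lay in shared H3K27ac with a shared MYOD region. Region chr4:114357129-114357432, between the genes, was in 3 libraries. The other most repeated regions, which began at chr4 positions 113810855, 114063133, 114078697, 114506027 and 114558162, were each in control 2 and 1 KD library.

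Tagged TWIST2 had 56 and 53 peaks in the window, merged into 76 regions, of which 33 (43.4%) were in both libraries, against 50.3% on all chromosomes. ANK2 held 16 and CAMK2D 14 of the 33. H3K27ac overlapped 22 of the 33 (66.7%), against 50.3% of all such TWIST2 regions. These comprised 11 in shared, 6 in KD-only and 5 in mixed H3K27ac regions. By H3K27ac library, 12 and 10 of the 33 had a peak in control and 20 and 21 in KD cells, and since the H3K27ac lists chose the window this is a description. MYOD overlapped 22 of the 33 and SMARCA4 10, counts given without a share over all chromosomes, so nothing is read from them.

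Where a MYOD and a tagged TWIST2 peak region overlapped, in 39 pairs, their centres were a median of 50 bp apart, and 20 pairs were within 50 bp. Overlap of such narrow regions itself limits how far apart their centres can lie. The distance is therefore a description, and binding at the same site was not tested. TWIST2 regions overlapped 6 of 26 KD-only H3K27ac regions (23.1%), against 31.5% on all chromosomes, and 9 of 17 shared ones (52.9%), against 52%. None of the MYOD, SMARCA4 or Ty1 lists had a peak in 3 of the 26 (11.5%), against 19.9%.

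At the edges of the window, the H3K27ac region just inside the lower end, chr4:113734972-113735472, had a 501 bp peak in KD 2 only. The region just outside it, chr4:113557125-113559696, had 2443 and 2491 bp in control and 2138 and 1824 bp in KD cells. At the upper end, the regions just inside, chr4:114746097-114747423, and just outside, chr4:114758492-114759402, were both KD-only, with peaks of 922 and 1327 bp and of 911 and 769 bp.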

How the data were processed

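The series held 24 RD libraries, of which 14 had peak lists, and the 10 input libraries were not used here. Per the submitters' processing notes, the build was GRCh37 (hg19) and the tools included HOMER 4.4, bedtools 2.29.2, Bowtie2 2.3.4.3 and SAMtools 0.1.19. The deposited H3K27ac lists have variable widths, and each MYOD or Ty1 list 1 fixed width, neither with scores. The threshold and the meaning of the order are not given in the sources used here. Per the file headers, SMARCA4 peaks were called by HOMER at a false discovery rate of 0.001 with 4.0-fold more tags than input and than the local 10000 bp. The deposited SMARCA4 signal (tags normalized to 10000000), score and fold ratio are the authors' values per peak.

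Peaks of an antibody's 4 lists on chromosomes 1 to 22, X and Y were merged at 1 bp overlap with Python 3.11.15, numpy 2.4.6 and pandas 2.3.3, and plotted with matplotlib 3.10.9. Percentiles rank peaks within a list by width or, for SMARCA4, score. Group counts were compared by exact two-sided permutation. Class calls were tested on simulated data (100% of 20000 regions recovered). Named were the 8 widest KD-only, the 5 widest shared H3K27ac and the 8 most repeated SMARCA4 regions, MYOD and TWIST2 changes overlapping them, and peaks at gene starts and window edges. The genes, window and rules were chosen with earlier results of these data known. Other genes of the families were not analysed here.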

Additional observations from a re-analysis of the deposited data

How the results depend on the processing

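Among the alternatives, 65 were labelled the same, 14 moved and 0 reversed. A count was labelled moved when it differed from the main count by more than a set factor, and could not be labelled reversed. A ratio was labelled reversed only if it crossed 1, and the same otherwise, however much it shifted. The tally is therefore partly fixed by these rules and does not measure stability. KD-only H3K27ac regions numbered 26, against 15 with lists cut to equal length and 13 with the upper fraction of 0.5 of each list, and 26 to 31 when each library was left out. Control-only H3K27ac regions were 0, against 1 with lists of equal length, and 0 to 1 without each library. KD-only MYOD regions were 7, against 4 within the gene spans, and 9 to 19 without each library. Control-only MYOD regions were 0, against 1 when peaks up to 500 bp apart were merged, and 0 to 9 without each library. Leaving a library out makes each of these classes easier to meet, so the counts tend to rise. TWIST2 regions were 33, or 76 with a peak in either Ty1 library. The cause of these shifts was not tested.

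The KD to control ratio of peaks stayed above 1 when each library was left out. It ran from 1.05 to 1.81 for SMARCA4, from 1.37 to 1.53 for MYOD, and from 2.23 to 2.55 for H3K27ac. Shared H3K27ac regions wider in every KD library numbered 16 of 17 without control 1 and 18 of 21 without control 2. They numbered 15 of 17 without KD 1 and 15 of 18 without KD 2. With fewer libraries both shared and wider are easier to meet, so this count tends to rise. Leaving libraries out for that count, and all alternatives for MYOD at KD-only H3K27ac regions (ratio 3.12 to 6.25 without each library), were added after the data were seen. With the replicate block the ratios were 2.38, 1.45 and 1.38, with exact permutation p = 0.5 for MYOD and SMARCA4, the smallest it allows. Over bins of 1 Mb, deviations of same-numbered libraries correlated at -0.0124 for H3K27ac, 0.0158 for MYOD and -0.0321 for SMARCA4. These values cannot show whether same-numbered libraries were prepared as pairs, which the labels do not say. Depth of the lists without tag counts is unknown, so a missing peak may be one below the threshold.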
